A study of Mus musculus with 4 samples.

Results

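The liver both makes the hormone that sets body iron and stores the metal. Hepcidin, the product of Hamp, is secreted by hepatocytes and causes the exporter ferroportin (Slc40a1) to be broken down, so that macrophages and gut cells hold their iron back. Hepatocytes read iron through the transferrin receptor Tfr2 and through BMP6, a ligand released by sinusoidal endothelial cells, while the protease encoded by Tmprss6 dampens that signal. Trf encodes transferrin, the plasma carrier, Tfrc the receptor by which most cells take it up, and Fth1 and Ftl1 the chains of the storage protein ferritin. Open chromatin at these 9 genes was compared between Mertk knockout (KO) and wild-type (WT) livers.

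The members were found by taking, from the authors' annotation of each library's ATAC peaks, the promoter and distal peaks assigned to Hamp, Tfr2, Tfrc, Trf, Bmp6, Slc40a1, Tmprss6, Fth1 or Ftl1. All 9 had at least 1 peak, of 25458 genes with a peak in either library, and they held 60 of 106319 KO peaks and 37 of 72302 WT peaks. No measured difference chose them, although earlier results of these libraries were known when the list was drawn up.

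The KO group is the liver of Mertk knockout mice after bile duct ligation, and the WT group that of wild-type mice after the same ligation, a surgical block of bile flow that leads to cholestasis and fibrosis. Mertk encodes a receptor that macrophages use to engulf dying cells. Nuclei from frozen liver were profiled with the 10x Multiome assay, which reads RNA and transposase-accessible DNA (ATAC) from the same nucleus, with 1 library per genotype and assay. Both genotypes were ligated, and an unligated liver was not analysed here. The labels give neither the number, sex and age of the animals, nor the time after surgery, nor the Mertk allele.

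With 1 library per genotype there was no replicate check and no test between genotypes, so every difference below describes these libraries. The KO peaks came from 5339 nuclei with 83996145 ATAC fragments and the WT peaks from 5828 nuclei with 40858512, a 2.06-fold difference in fragments. The RNA of the same nuclei went the other way, with 11083766 UMIs in the KO and 31798452 in the WT library. Over all genes the KO list was 1.47 times as long. Mertk itself had 13 peaks in the KO and 10 in the WT library, with a promoter peak in each, which does not check the genotype because the deleted part is not given. Peaks pooled over a whole library cannot tell apart fewer nuclei of a cell type and less open chromatin per nucleus.

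A promoter peak was called in only 1 library at 3 of the 4 hepatocyte iron genes and in both at every other member. Hamp, Tfr2 and Tmprss6 had a promoter peak in the KO library alone, while Trf, Bmp6, Slc40a1, Tfrc, Fth1 and Ftl1 had one in both, and no member had one in the WT library alone. That is 3 of 9 members in the KO library alone, against 15.4% of the 17563 genes with a promoter peak in either library. For a peak in the WT library alone the share over all genes was 3.17%, and for a peak in both 81.4%. The hepatocyte gene with a promoter peak in both was Trf.

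**Figure D1:**
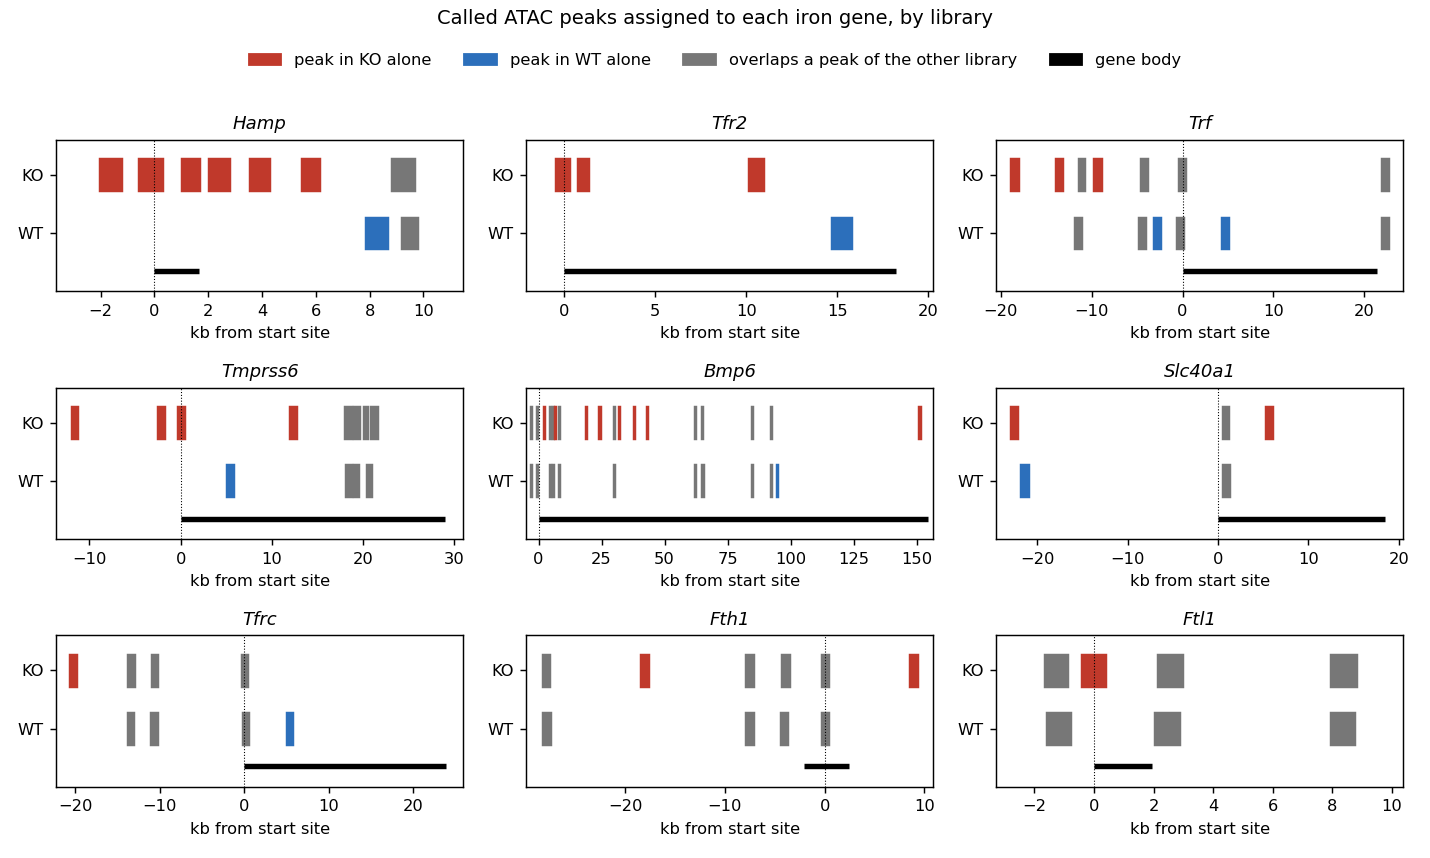
Called peaks of each iron gene, placed by distance in kb from the RefSeq start site (dotted line, direction of transcription to the right), with KO above WT in each panel and the gene body as a black bar. Boxes are drawn to scale and coloured by whether a peak of the other library overlaps them by at least 1 bp. At Hamp the 6 KO peaks nearest the start lack a WT counterpart, whereas Tfrc and Fth1 have grey boxes over the start in both libraries.

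Hamp (chromosome 7, mm10 coordinates 30942368 to 30944029, minus strand) had 7 peaks in the KO library and 2 in the WT library, which sum to 5.67 kb and 1.53 kb. The KO promoter peak, at chr7:30943701-30944633, covered the start site and lay 7485 bp from the nearest WT peak. Further KO peaks without a WT counterpart were centred 1.36, 2.41, 3.90 and 5.80 kb downstream of the start and 1.64 kb upstream of it. The remaining KO peak, centred 9.23 kb downstream, was the 1 region common to both libraries, with an overlap of 521 bp. The second WT peak, centred 8.25 kb downstream, was only 99 bp away from that common KO peak. No WT peak of Hamp was therefore centred closer to its start than 8.25 kb. Every Hamp peak of both libraries was also assigned to Gm44662, a predicted gene, and the upstream KO peak to Usf2, a transcription factor gene next to Hamp.

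The 250 bases before the Hamp start were read from RefSeq (GRCm38.p6, the assembly behind mm10), because they lie wholly under the KO promoter peak and under no WT peak. RefSeq windows were matched for 6 of the 9 members, and those of Tfr2, Ftl1 and Tfrc are given with it: Tfr2 and Ftl1 as further starts inside a peak in the KO library alone, Tfrc as a start inside a peak in both. Each is written 5′ to 3′ on the gene's strand and ends at the base before the start. The coordinates are chr7:30944030-30944279 for Hamp (minus), chr5:137569590-137569839 for Tfr2 (plus), chr7:45459887-45460136 for Ftl1 (minus) and chr16:32608646-32608895 for Tfrc (plus). Capitals mark matches to any of 7 motifs named below.
Hamp: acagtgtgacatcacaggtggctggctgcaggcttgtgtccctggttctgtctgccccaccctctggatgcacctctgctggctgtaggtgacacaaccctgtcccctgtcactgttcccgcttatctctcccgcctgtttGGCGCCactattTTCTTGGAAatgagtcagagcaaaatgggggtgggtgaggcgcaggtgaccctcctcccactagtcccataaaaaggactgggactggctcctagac
Tfr2: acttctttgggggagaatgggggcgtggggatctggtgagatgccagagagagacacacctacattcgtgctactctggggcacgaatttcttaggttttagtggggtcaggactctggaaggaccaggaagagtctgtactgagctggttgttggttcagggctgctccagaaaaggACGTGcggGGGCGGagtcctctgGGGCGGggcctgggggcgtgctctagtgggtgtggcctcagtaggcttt
Ftl1: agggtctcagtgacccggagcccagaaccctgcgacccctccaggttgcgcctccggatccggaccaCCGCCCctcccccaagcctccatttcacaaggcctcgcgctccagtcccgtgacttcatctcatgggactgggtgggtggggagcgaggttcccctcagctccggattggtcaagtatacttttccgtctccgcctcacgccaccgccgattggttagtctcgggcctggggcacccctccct
Tfrc: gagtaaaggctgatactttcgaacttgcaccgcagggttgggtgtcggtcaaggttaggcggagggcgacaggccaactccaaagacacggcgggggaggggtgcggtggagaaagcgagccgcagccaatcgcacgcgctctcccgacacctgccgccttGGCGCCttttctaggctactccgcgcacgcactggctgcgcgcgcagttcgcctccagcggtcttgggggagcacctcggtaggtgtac

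The Hamp sequence held the core of a BMP-responsive element, GGCGCC, at -109 to -104 from the start, and a STAT-type match, TTCTTGGAA, at -97 to -89. These are the kinds of element by which BMP and interleukin-6 signals are known to drive hepcidin. Both strands were searched for GGCGCC, TTCNNGGAA, TTGCNNAA (C/EBP type), CACGTG (E-box), TGACNNNGC (antioxidant response element core), ACGTG (hypoxia response core, which overlaps the E-box) and GGGCGG (Sp1 type). Of 32851 RefSeq windows of this length, 9.59% held GGCGCC and 4.06% TTCNNGGAA. GGCGCC was also present in the Tfrc window, at -89 to -84, so the match by itself did not set Hamp apart. Tfr2 held 2 copies of GGGCGG, at -64 to -59 and -49 to -44, and ACGTG at -72 to -68, and Ftl1 held GGGCGG on the opposite strand at -183 to -178. GGGCGG occurred in 32.7% of all windows and ACGTG in 16.6%.

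Tfr2 (chromosome 5, 137569822 to 137588081, plus strand) had 3 peaks in the KO library and 1 in the WT library, 2.42 kb and 1.14 kb. It was the only member without a single region common to both libraries. The KO promoter peaks were chr5:137569354-137570177, over the start site, and chr5:137570527-137571225, centred 1.04 kb inside the gene. The third KO peak was centred 10.5 kb and the WT peak 15.2 kb downstream of the start, with 3673 bp between them. Tfr2's mean of both libraries was under the 2 kb needed for a ratio here.

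Tmprss6 (chromosome 15, 78439667 to 78468648, minus strand) had 8 KO and 4 WT peaks, 6.39 kb and 2.88 kb. A cluster inside the gene, centred 18.4 to 21.2 kb downstream of the start, was open in both libraries, with 4 KO and 3 WT peaks that overlapped each other. The start itself was inside a peak in the KO library alone, at chr15:78468138-78469020, where the nearest WT peak was 4505 bp away. Other KO peaks without a counterpart were centred 12.3 kb downstream and 2.14 and 11.6 kb upstream, and the WT peak without one 5.45 kb downstream.

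Accessible length, the summed length of a gene's peaks, was compared between libraries as the log2 ratio of KO to WT with 1 kb added to each side. The ratio of the median gene, 0.39, was subtracted, so that 0 stands for the general surplus of KO peaks. Genes at 1 or above are called higher here and genes at -1 or below lower, which is a 2-fold limit on size alone. Of 8 measured members 1 was higher and 0 lower, against 10.3% and 4.08% of the 14692 genes measured. Without the subtraction these shares of all genes were 19.6% and 1.34%, and Hamp, at 1.40, was still the 1 member past the limit. Hamp was the member past the rule, at 1.01, and the nearest to it was Tmprss6, at 0.54. Hamp stood just at the limit, since with 2 kb added in place of 1 kb its ratio was 0.80.

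**Figure D2:**
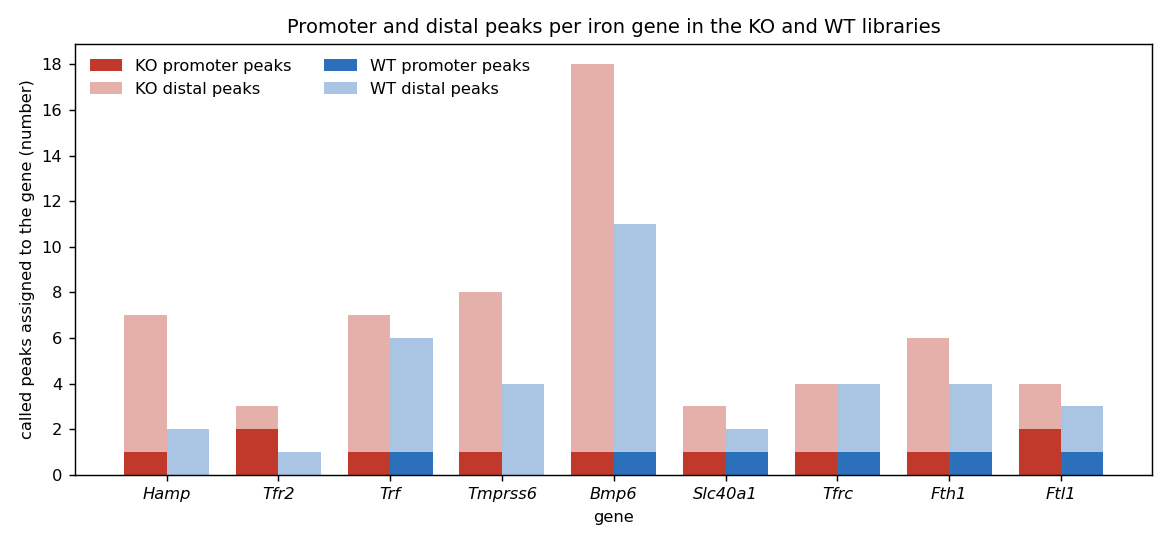
Number of called peaks assigned to each iron gene (y axis), with the KO library left of the WT library and promoter peaks in the darker shade under distal peaks in the lighter one. Hamp has 7 KO and 2 WT peaks and Bmp6 18 and 11, while Tfrc has 4 in each.

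Bmp6, the endothelial ligand of the hepcidin pathway (chromosome 13, 38345716 to 38500314, plus strand), had the most peaks of any member, 18 in the KO and 11 in the WT library. They summed to 15.2 kb and 9.66 kb, a ratio of 0.21. Of the WT peaks 10 overlapped a KO peak, among them the promoter peaks, chr13:38344721-38345521 in the KO and chr13:38344627-38345522 in the WT library. The common regions included a group far inside the gene, centred 62.1 to 92.4 kb from the start in the KO library and 62.1 to 92.3 kb in the WT library. The 8 KO peaks without a counterpart all lay inside the gene, centred 2.24 to 151.2 kb downstream of the start, and 7 of them within the first 43.2 kb. The 1 such WT peak was centred 94.7 kb downstream.

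Trf, the transferrin gene (chromosome 9, 103208876 to 103230286, minus strand), differed from the other hepatocyte members. It had 7 KO and 6 WT peaks, 6.13 kb and 5.46 kb, and its ratio was -0.25. Its start site was inside a peak in both libraries, at chr9:103229954-103230825 in the KO and chr9:103230110-103230971 in the WT library, an overlap of 716 bp. In all, 4 regions were common. The KO peaks without a counterpart were all upstream, centred 9.36, 13.6 and 18.5 kb from the start, and those of the WT library were centred 2.81 kb upstream and 4.68 kb downstream.

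Tfrc, the uptake receptor of most cells (chromosome 16, 32608896 to 32632794, plus strand), had 4 peaks in each library, 3.63 kb in the KO and 3.51 kb in the WT library. With a ratio of -0.36 it was the lowest of the measured members. Its promoter peaks, chr16:32608490-32609373 in the KO and chr16:32608569-32609466 in the WT library, overlapped by 805 bp, and peaks centred 13.4 and 10.6 kb upstream in the KO library also had WT counterparts. The single peak without one was centred 20.2 kb upstream in the KO library and 5.32 kb downstream in the WT library.

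Slc40a1, the gene of the iron exporter on which hepcidin acts (chromosome 1, 45908070 to 45926532, minus strand), had 3 KO and 2 WT peaks, 2.62 kb and 1.83 kb, a ratio of -0.04. The promoter peaks nearly coincided, at chr1:45925291-45926151 in the KO and chr1:45925255-45926117 in the WT library, with 827 bp in common. Both were centred just inside the gene, 0.81 and 0.85 kb from the RefSeq start, which neither covered. Each library also had a peak 22.6 kb (KO) or 21.5 kb (WT) upstream. These did not overlap but were only 202 bp apart. A KO peak centred 5.61 kb inside the gene had no WT counterpart.

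The ferritin genes showed 2 patterns at their starts. Fth1, the heavy chain (chromosome 19, 9980600 to 9985111, plus strand), had 6 KO and 4 WT peaks, 5.24 kb and 3.49 kb, a ratio of 0.08. All 4 WT peaks had KO counterparts, including the promoter peaks chr19:9982245-9983100 in the KO and chr19:9982287-9983080 in the WT library. The KO peaks without a counterpart were centred 18.1 kb upstream and 8.87 kb downstream of the start of the coding transcript. Ftl1, the light chain (chromosome 7, 45457944 to 45459886, minus strand), had 4 KO and 3 WT peaks, 3.40 kb and 2.53 kb, a ratio of -0.08. All 3 WT peaks again had KO counterparts, but the authors' promoter class takes in a peak centred 1.28 kb (KO) or 1.19 kb (WT) upstream, and the start itself was inside a peak in the KO library alone, at chr7:45459489-45460319, 351 bp from the nearest WT peak. Ferritin genes have processed copies elsewhere in the mouse genome, and the labels do not say how reads matching several copies were handled.

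By start site, therefore, 7 members were inside a peak in the KO library (Hamp, Tfr2, Trf, Tmprss6, Tfrc, Fth1 and Ftl1) and 3 in the WT library (Trf, Tfrc and Fth1). These starts were chosen within 500 bp of a promoter peak of either library, so the counts partly follow from that choice. No share over all genes was computed by this rule. For Fth1 the start so chosen was that of the coding transcript. By the most upstream RefSeq start of each gene, which for Fth1 is another one and inside no peak, 4 of the 6 members with a RefSeq window had their start inside a peak, 3 of them in the KO library alone and 1 in both. Over the 13070 genes with such a start inside a peak, 15.4% had it in the KO library alone, 3.4% in the WT library alone and 81.2% in both. CpG is the C-G dinucleotide, which is sparse at many tissue-specific promoters. Of 15950 most upstream starts with an observed-to-expected CpG ratio under 0.5 in the preceding 250 bases, 7.96% were inside a peak in the KO library alone, 2.04% in the WT library alone and 13.7% in both. Of 11072 starts at 0.5 or more the shares were 6.69%, 1.07% and 76.2%. The KO-only share of all starts was thus much alike in the 2 classes, and the classes differed mainly in starts open in both libraries. As a share of starts inside a peak in either library, however, the classes differed. The KO-only share was 33.6% of 3774 such starts under 0.5 and 7.97% of 9296 at 0.5 or more. Hamp (0.20) and Tfr2 (0.43) fell in the class under 0.5, as did the most upstream Fth1 start (0.40). Ftl1 (0.66), Bmp6 (0.74) and Tfrc (0.96) fell in the other class, and the coding start of Fth1 had a ratio of 0.78.

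Over all members, with promoter and distal peaks pooled, the overlap between libraries was near that of all genes. Of the 60 KO peaks 30 overlapped a WT peak (50%, exact 95% interval 36.8% to 63.2%), against 49.5% of all KO peaks assigned to a gene. Of the 37 WT peaks 29 overlapped a KO peak (78.4%, 61.8% to 90.2%), against 72.5%. By type, 6 of 11 KO promoter peaks overlapped a WT peak (54.5%, 23.4% to 83.3%), against 78.9% over all genes. For KO distal peaks it was 24 of 49 (49.0%, 34.4% to 63.7%), against 44.3%. Both of these intervals include the share of all genes. For WT peaks the shares were 6 of 6 promoter peaks, against 93.5%, and 23 of 31 distal peaks (74.2%), against 67.7%. The intervals cover counting error only. Among KO peaks of both types, the share was 9 of 25 for the hepatocyte members (36%, 18.0% to 57.5%) and 10 of 18 for Bmp6. It was 1 of 3 for Slc40a1 and 10 of 14 for Tfrc, Fth1 and Ftl1 together (71.4%, 41.9% to 91.6%). The hepatocyte and general groups' intervals overlap each other and each includes the share of all genes. Common peaks of Tfrc, Fth1 and Ftl1 had a median overlap of 822.5 bp. All peaks of these genes, common or not, had median widths of 881.5 bp (KO) and 859 bp (WT). Common peaks of the hepatocyte members overlapped less, by a median of 587 bp over KO peaks and 588.5 bp over WT peaks. All hepatocyte member peaks, common or not, had median widths of 857 bp (KO) and 866 bp (WT). Widths of common peaks alone were not summarised. A smaller overlap can also come from a narrower peak, as at a Tmprss6 WT peak of 587 bp that was overlapped over 100% of its width. The median overlap was 816 bp for Bmp6 and 831 bp over all genes. The hepatocyte overlap medians rest on 9 KO and 8 WT peaks, with overlaps up to 849 bp at Trf, and were not tested. At Tmprss6 the smallest overlap was 186 bp of an 827-bp KO peak.

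The median ratio of the 8 measured members was 0.02, against 0 for all genes, with 4 members above the median gene and 4 below. Trf, Tfrc, Slc40a1 and Ftl1 lay below 0 only relative to the median gene, and without the subtraction they lay at 0.14, 0.04, 0.36 and 0.32. For Trf and Tfrc this means about equal accessible length in these libraries. With promoter peaks alone Ftl1 lay at 0.53 and Bmp6 at -0.08, on the other side of the median gene.

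**Figure D3:**
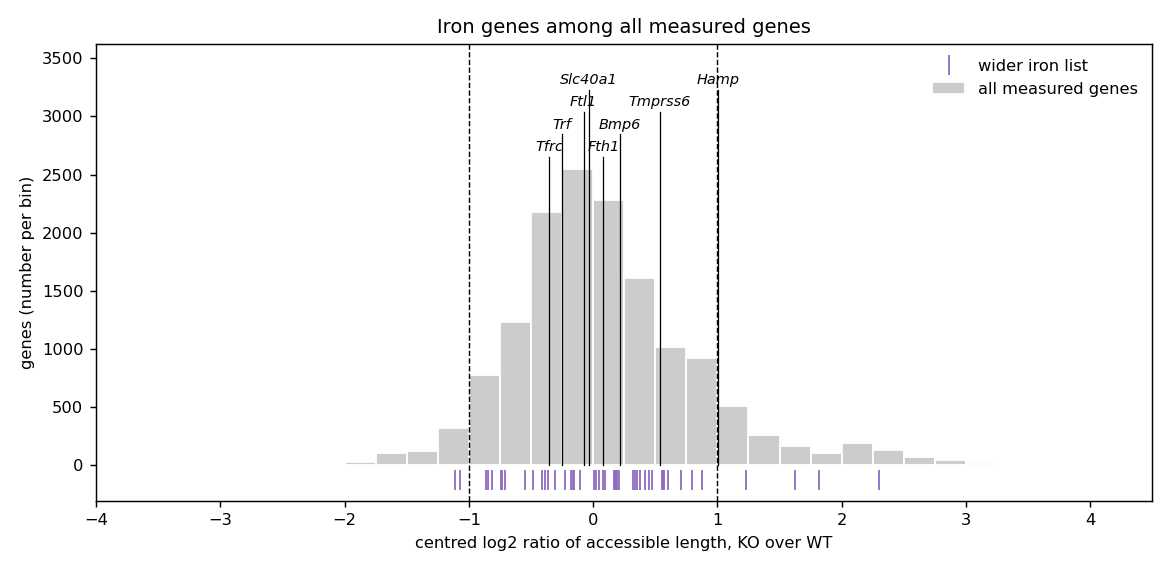
Centred log2 ratio of accessible length, KO over WT (x axis), for all 14692 measured genes (grey bars, number of genes per bin of 0.25), the 8 measured iron genes (labelled lines) and 47 other genes of iron handling (purple ticks). Dashed lines mark -1 and 1. Hamp sits at 1.01 and the other 7 members between -0.36 and 0.54.

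The genes' cell types were contrasted next, with markers of each type beside them. The hepatocyte iron genes had 25 KO and 13 WT peaks (1.92-fold), Bmp6 18 and 11 (1.64-fold), Slc40a1 3 and 2 (1.5-fold), and Tfrc, Fth1 and Ftl1 together 14 and 11 (1.27-fold). Over all genes, counting a peak once for each gene it is assigned to, the KO library had 1.47 times as many. The order of these groups rests on 1 to 4 genes each and was not tested.

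Hepatocyte markers differed most between the libraries. The 8 markers had 81 KO and 15 WT peaks, 66.4 kb and 12 kb in length, and 6 of 8 were higher by the size rule, with a median ratio of 1.78. Alb (albumin) had 10 KO and 0 WT peaks, Cps1 (a urea cycle enzyme) 12 and 0, Cyp3a11 (a cytochrome P450) 10 and 0 and Serpina1a (alpha-1 antitrypsin) 6 and 0. Hnf4a, a master regulator of hepatocyte identity, had 7 and 1, and Apoa1, an apolipoprotein gene, 24 and 7. Promoter peaks were in the KO library alone for 6 of the 8, among them Ttr, whose ratio was -0.69. In the WT library, then, 4 of 8 defining markers of the main cell type of liver were at 0. Hamp, Tfr2 and Tmprss6 had their promoter peaks in the KO library alone, as 6 of these 8 markers did. By ratio, all 3 measured hepatocyte iron genes lay within the markers' range of -0.69 to 3.11, but Ttr alone set its low end. The lowest of the other markers was at 0.92, and Tmprss6 (0.54) and Trf (-0.25) lay below it. Tfr2 was not measured. The part of the hepatocyte list in these values was not tested.

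Endothelial markers had 138 KO and 78 WT peaks, 118.1 kb and 66.1 kb, with a median ratio of 0.48, 0 of 8 past the size rule and promoter peaks in both libraries for all 8. Bmp6, at 0.21, lay within their range of -0.17 to 0.62. Macrophage markers had 56 KO and 60 WT peaks, 47.8 kb and 50.4 kb, with a median of -0.42 over 7 measured genes. Only Vsig4, a complement receptor gene of liver macrophages, passed the rule, at -2.46 with 1 KO and 8 WT peaks and a promoter peak in the WT library alone. Slc40a1, at -0.04, lay within the macrophage range of -2.46 to 0.62 and above the macrophage median. Vsig4 alone set the low end and 1 other marker the high end, and the remaining measured markers lay between -0.75 and -0.03. Slc40a1 also lay within the endothelial range, and Bmp6 within the macrophage and hepatocyte ranges. For these genes the ranges therefore do not tell the cell types apart. Erythroid markers, listed because red cell precursors use much iron, had 6 peaks in each library over the 4 of 6 genes found in the annotations, where the names Hbb-bt and Hba-a1 do not occur.

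**Figure D4:**
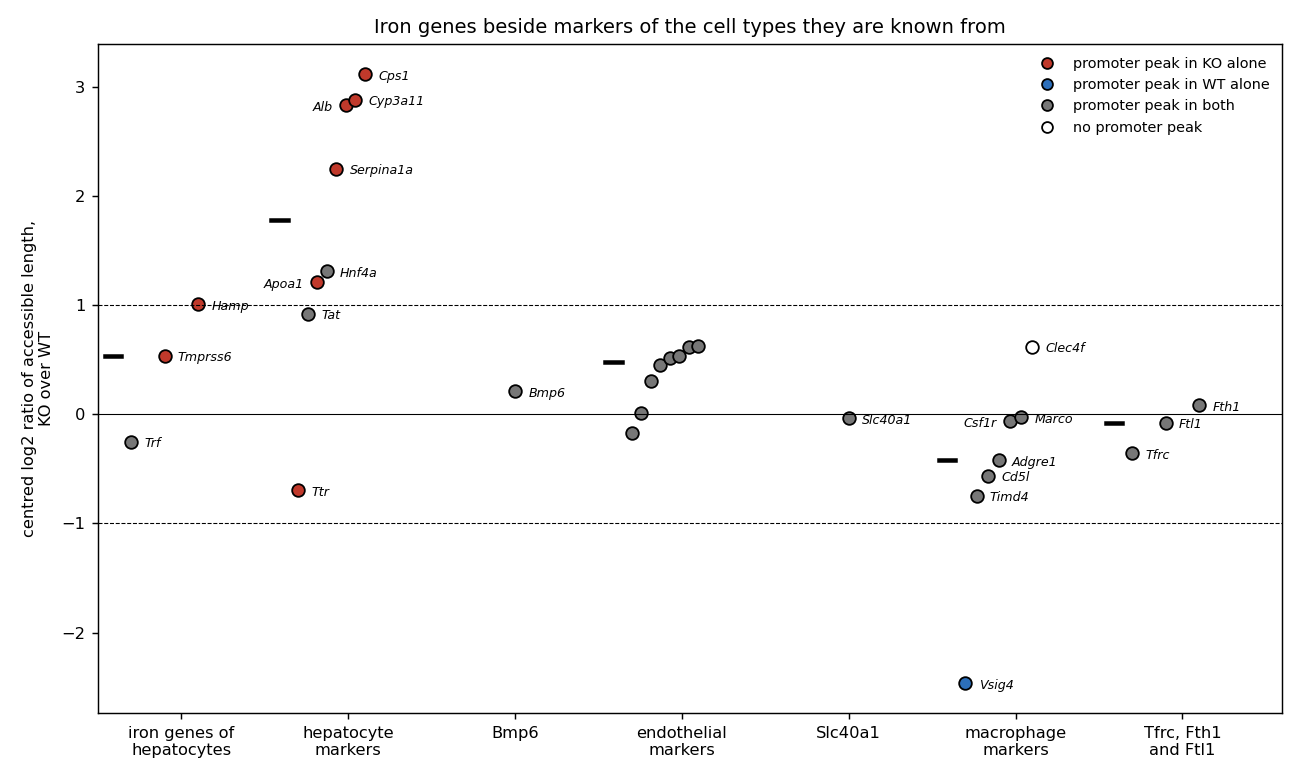
Centred log2 ratio of accessible length, KO over WT (y axis), for measured iron genes beside measured markers of hepatocytes, endothelium and macrophages; each point is a gene, short bars at the left of a group are its median, and fill shows where a promoter peak was called. Hamp (1.01) and Tmprss6 (0.54) share red fill with most hepatocyte markers, whereas Trf (-0.25), Bmp6 (0.21) and Slc40a1 (-0.04) are grey.

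The wider iron pathway was examined in a list of 59 further genes, all with a peak in at least 1 library. Of 47 measured genes 4 were higher and 2 lower by the size rule, beside 10.3% and 4.08% of all genes, and the median ratio was 0.09. A promoter peak was found in the KO library alone for 8 of the 55 with one in either library, beside 15.4% of all genes, and in the WT library alone for 0. These shares are near those of all genes.

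Among the 15 genes of the HFE, BMP and SMAD input to hepcidin, Bmpr1a, a BMP receptor, was higher at 1.23, with 9 KO and 2 WT peaks, and 0 were lower. Hjv, the BMP co-receptor hemojuvelin, had 10 and 4 peaks and 2 promoter peaks in the KO library against 0 in the WT library, a ratio of 0.56. The group's median was 0.09. Of the 7 erythroid and inflammatory regulators, 5 were measured and 0 passed the rule, and Gdf15, a stress-induced cytokine gene, had 7 KO and 4 WT peaks, with none of the WT peaks at its promoter. Hamp2, the second mouse hepcidin gene, had 2 and 1 peaks, and its promoter peak was likewise in the KO library alone.

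Of 9 measured genes of iron uptake, reduction and export 1 was higher and 1 lower, with a median of 0.48. Scara5, a ferritin receptor, had 13 KO peaks and 1 WT peak (2.30), and Ltf, which encodes the iron-binding protein lactoferrin of neutrophil granules, 3 and 6 (-1.11). Heph, a ferroxidase gene, had 1 and 0 peaks and Lcn2, which binds bacterial iron carriers, 2 and 0, with promoter peaks in the KO library alone. Among 4 measured genes of iron regulatory proteins and ferritin turnover, Ireb2, which encodes iron regulatory protein 2, was higher at 1.63, with 12 and 2 peaks. Pcbp1, an iron chaperone, had 1 peak in each library, classed as promoter in the KO library alone although the peaks overlapped.

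Haem genes had a median of -0.10 over 11 measured, with 1 higher. Fech, the last enzyme of haem synthesis, had 9 KO peaks and 1 WT peak (1.81), and Hpx, the plasma haem carrier hemopexin, 4 and 1, with its promoter peaks in the KO library alone. Of 3 measured mitochondrial genes 1 was lower, Iscu, a scaffold for iron-sulfur clusters, with 4 and 6 peaks (-1.07). Slc25a28, a mitochondrial iron importer, had 4 and 3 peaks, of which only a KO peak was classed as promoter.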

How the data were processed

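Per the file headers, peaks came from cellranger-arc 2.0.2 on mm10, run once per library. No header or label gives the settings of the caller. The deposited lists give positions and no heights, and the deposited annotation assigns peaks to genes as promoter, distal or intergenic. Deposited per-barcode counts of UMIs and ATAC fragments gave the depth of the called nuclei.

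Contigs other than the numbered chromosomes, X and Y were left out (44 KO and 43 WT peaks). Peaks overlapping by at least 1 bp were called common, with counts equal to those of bedtools 2.31.1. Ratios used a pseudocount of 1 kb, genes of mean length at least 2 kb and a 2-fold rule of size; the code was tested on simulated data. Start sites came from RefSeq, as the most upstream start within 500 bp of a promoter peak of either library. For Fth1 this was the start of the coding transcript. Strand, where RefSeq windows gave none, came from the promoter peaks. Intervals are exact (Clopper-Pearson).

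Members and lists were chosen with earlier results of these data known. Named genes are all members, genes sharing a peak with one, and genes of the iron and marker lists past the rule or with a promoter peak in 1 library. Tat and other markers outside this rule are named only in a plot. The closing section gives the effect of other pseudocounts, filters, peak sets and overlaps. Gene-by-nucleus matrices were not analysed here, so nuclei were neither clustered nor screened for doublets; 44 barcodes were called as nuclei in both libraries. The work used pandas 2.3.3 and numpy 2.4.6 under Python 3.11.15, with scipy 1.17.1 for intervals and matplotlib 3.10.9 for plots.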

Additional observations from a re-analysis of the deposited data

How the results depend on the processing

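No paired analysis was possible because a genotype is represented by a single ATAC library, so that none could be left out. Hamp passed the size rule with 0.5 kb added, without subtracting the median, with peak numbers, without a length minimum and with peaks of at least 500 bp. The number of members past it was 0 with 2 kb added (Hamp at 0.80), with promoter peaks only (0.94) and with peaks assigned to no other gene, where Hamp has none. Hamp's promoter peak of 933 bp against no WT promoter peak cannot reach 1 with 1 kb added. The setting with promoter peaks only could therefore not show whether Hamp passes. No member was lower under any of the 8 alternatives. With no length minimum Tfr2 had a ratio of 0.30. The members' median ranged from -0.01 to 0.42. Against their values in the report, promoter peaks only put Ftl1 at 0.53, Bmp6 at -0.08 and Tmprss6 at 0.90. Peaks assigned to no other gene put Tmprss6 at 0.19, Bmp6 at 0.60, Fth1 at -0.11 and Ftl1 at 0.03. Of the wider list, 7 were higher without the subtraction and 2 with promoter peaks only. The number lower was 0 with 2 kb added, without the subtraction and with promoter peaks only, 1 with peak numbers and 4 with no length minimum. Over all genes, 2884 were higher and 197 lower without the subtraction, and 310 lower with 2 kb added. With promoter peaks only they were 236 and 29 of 11441 genes (2.06% and 0.253%). With no length minimum they were 2872 and 1334 of 25458 (11.3% and 5.24%), shares close to 10.3% and 4.08%. The share of WT member peaks common to both libraries was 100% for the 6 promoter peaks, beside 93.5% of all WT promoter peaks. It was 75.7% to 83.8% under the other 4 alternatives. The share of KO member peaks was 46.7% to 55.0% under all 5. With promoter peaks only it was 54.5%, beside 78.9% of all KO promoter peaks. The cause of these shifts was not tested. Peaks carry no height, so depth limits every absence: a region without a WT peak may hold fewer fragments than the caller needs, and the WT library had fewer fragments.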

Other observations

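All peaks within 50 kb of each gene, whatever gene they were assigned to, gave a count that does not rest on the annotation. Around Hamp there were 22 KO and 10 WT peaks (2.20-fold) and around Tmprss6 24 and 11 (2.18-fold). The other members had lower ratios: 24 and 17 for Bmp6 (1.41-fold), 11 and 8 for Tfr2 (1.38-fold), 22 and 16 for Fth1 (1.38-fold), 13 and 10 for Ftl1 (1.3-fold), 15 and 12 for Tfrc (1.25-fold), 12 and 10 for Trf (1.20-fold) and 13 and 12 for Slc40a1 (1.08-fold). By this count Slc40a1 and Trf had nearly as many WT as KO peaks. Over the whole lists the KO library had 1.47 times as many peaks, and only Hamp and Tmprss6 lay above that ratio. Of the WT peaks in these windows, a KO peak overlapped 8 of 10 around Hamp, 9 of 11 around Tmprss6, 12 of 17 around Bmp6, 5 of 8 around Tfr2, 16 of 16 around Fth1, 10 of 10 around Ftl1, 10 of 12 around Tfrc, 8 of 10 around Trf and 9 of 12 around Slc40a1. Over all WT peaks assigned to a gene this share was 72.5%.

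Genes that share a peak with a member gave these numbers. Gm44662, which shares every Hamp peak, had 10 KO and 4 WT peaks, and Usf2 4 and 2. Actl6b, next to Tfr2, had 2 and 1 peaks, and Kctd17 and Il2rb, next to Tmprss6, had 5 and 2 and 2 and 1. Srprb, next to Trf, had 5 in each library. Gys1, next to Ftl1, had 3 and 2 peaks, and Best1, next to Fth1, had 3 and 2. Gm31834 and 4930579J19Rik, which share peaks with Bmp6, had 4 and 3 and 4 and 5.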
